A study of Saccharomyces cerevisiae with 21 samples.

Results

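The autophagy genes of budding yeast, Saccharomyces cerevisiae, were the 38 genes among the 5449 measured whose symbol is ATG and a number, together with VPS15, VPS30, VPS34 and UME6. The rule used names and no measured value, although it was written with earlier results of these data known. By role, 24 encode core machinery (5 in the initiation complex, 5 in the phosphatidylinositol 3-kinase complex, 6 in Atg9 traffic and membrane supply, 8 in Atg8 and Atg12 conjugation), 11 serve selective autophagy, 2 act in the vacuole and 1, UME6, encodes a transcriptional regulator. Each was read by 1 probe set, and all 38 lay above the limit set by probe sets for another species on every one of the 21 arrays.

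RNA from whole cultures was hybridized to Affymetrix yeast arrays, 3 for each of 7 groups. In YPD, the standard rich growth medium made with dextrose, the groups were heat with ISP1, heat alone, ISP1 alone and an untreated control. In SC, synthetic complete medium, the groups were myristate with ISP1, myristate alone and a control. ISP1 is myriocin, which inhibits serine palmitoyltransferase, the enzyme that commits serine and an acyl-CoA to sphingolipid synthesis, and myristate is a saturated fatty acid. Treatments lasted 45 min per the labels, apart from myristate with ISP1, for which no time is stated, and ISP1 was not given without myristate in SC. Strain, genotype, temperature, dose and vehicle are not given in the labels, and nothing says whether replicates were separate cultures. The p-values therefore cover the spread between these arrays alone, which may be technical.

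Autophagy wraps cytoplasm or a chosen organelle in a new membrane sac, the autophagosome, and delivers it to the vacuole for breakdown. The Atg1 kinase complex starts the membrane, lipid kinase and Atg9 vesicles extend it, and a ubiquitin-like protein, Atg8, is attached to its lipid and holds receptors that bring in mitochondria, peroxisomes, endoplasmic reticulum or vacuolar enzymes. Starvation and inhibition of the TOR kinase switch the pathway on, and yeast then makes more of several ATG transcripts, ATG8 above all, while Ume6 represses ATG8 in growing cells. The arrays measured transcripts, not the activity of the pathway.

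Genes known to answer each treatment moved with it, but most of them also rose with the other treatments. Of the 7 genes named here, 6 rose with heat, 6 with ISP1 in YPD and 6 with myristate, and RSB1 fell with heat. The chaperone genes SSA4, HSP26 and HSP104 rose with heat by 4.67 ± 0.14, 3.52 ± 0.22 and 2.13 ± 0.07 on the log2 scale (SE, 3 arrays a group). POT1 and POX1, of fatty acid beta-oxidation, rose with myristate by 4.37 ± 0.25 and 3.28 ± 0.22. RSB1, a sphingoid base transporter gene, and ORM2, a regulator of serine palmitoyltransferase, rose with ISP1 in YPD by 1.43 ± 0.13 and 0.71 ± 0.07. In SC with myristate, the ISP1 difference was 0.25 ± 0.13 for RSB1 (adjusted p = 0.86) and 0.16 ± 0.07 for ORM2 (adjusted p = 0.707), and neither passed the test. Replicates correlated with r from 0.993 to 0.998 across genes, and precision is limited by there being 3 arrays a group.

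Heat raised most of the autophagy genes. Of the 38, 30 rose and 4 fell at an adjusted p under 0.05, the threshold for every call here, while 39.8% of all genes tested rose and 40.9% fell. The median log2 change was 0.90 for the 38 and -0.00 for all genes. Called rises of at least 2-fold numbered 18 among the 38 and 715 among all 5449 genes. The 5 initiation genes and the 2 vacuolar genes rose, as did 3 of 5 in the lipid kinase complex, 5 of 6 in membrane supply, 5 of 8 in conjugation and 10 of 11 in selective autophagy. Because the RNA was pooled over a culture, a change in every cell and a change in some of the cells cannot be told apart.

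**Figure D1:**
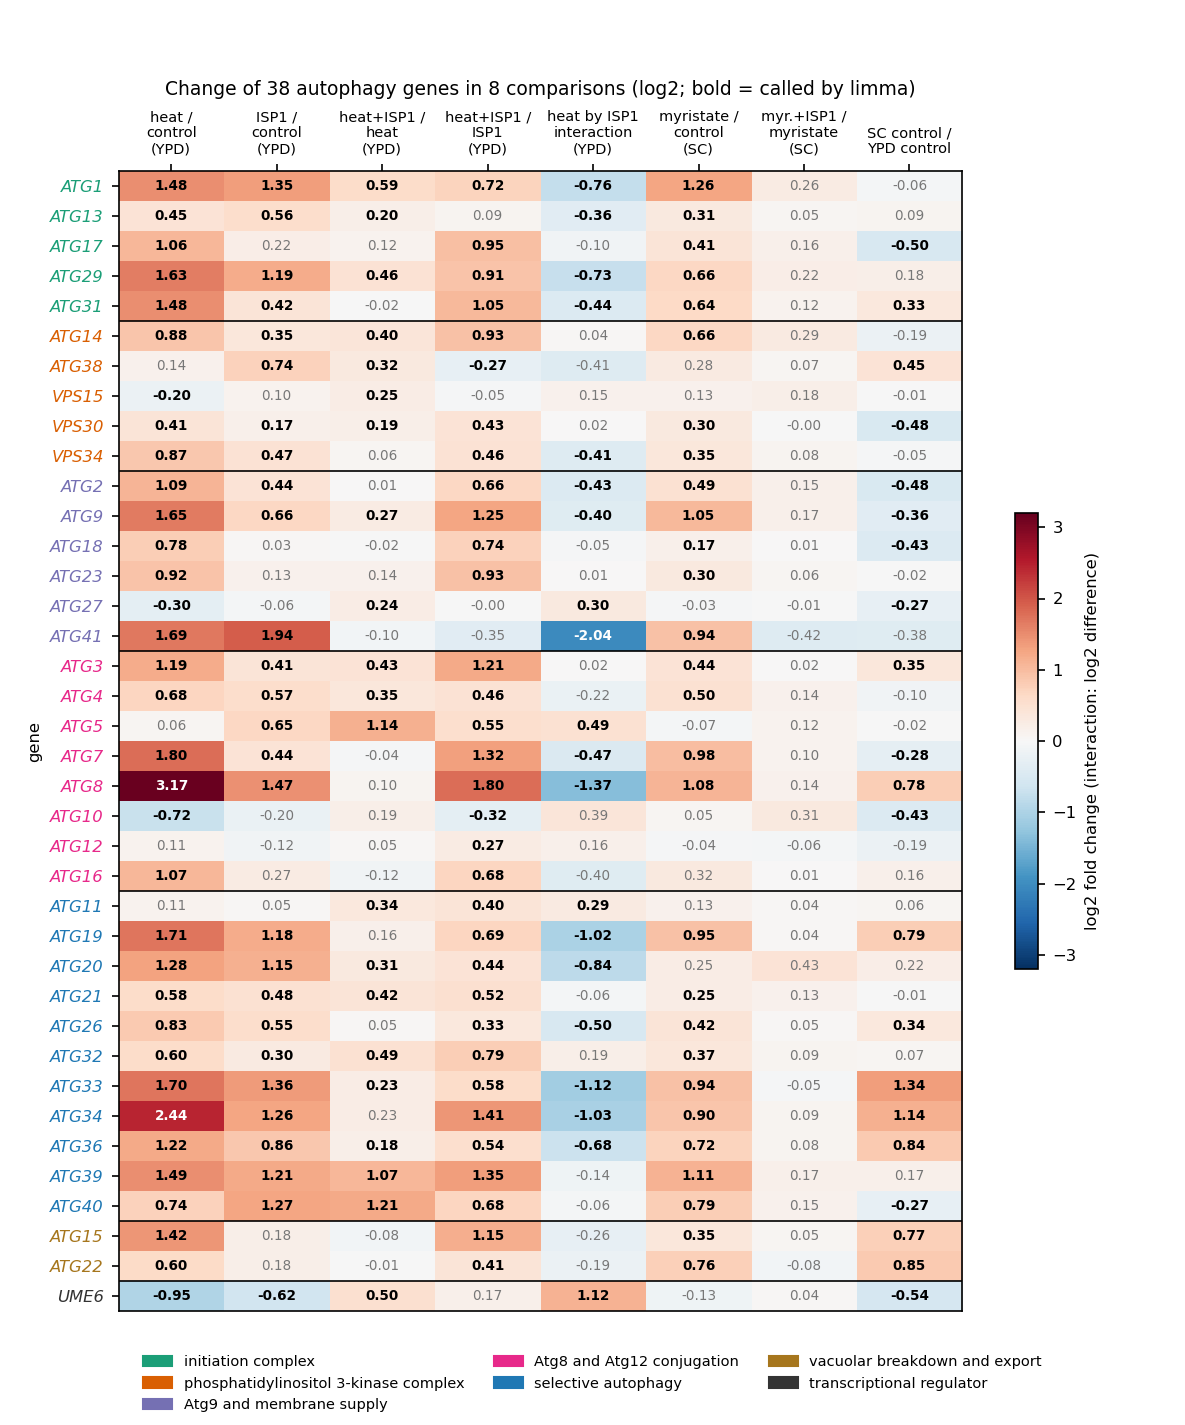
Log2 fold change of each of the 38 autophagy genes (rows, grouped and coloured by role) in 8 comparisons (columns); the interaction column is the ISP1 effect in heated cells minus that in unheated cells. Bold values passed the test; the heat column is mostly red and the column of myristate with ISP1 against myristate holds no bold value.

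ATG8 (systematic name YBL078C), which encodes the ubiquitin-like protein of the autophagosome membrane, had log2 levels of 11.88, 11.77 and 11.82 in heated cells, against 8.78, 8.60 and 8.56 in control cells. The groups stood far apart, and the change of 3.17 ± 0.07 was 9.02-fold (adjusted p = 1.53e-17), the 80th highest of the 5449 genes. ATG7 (YHR171W), the enzyme that activates both Atg8 and Atg12, measured 10.66, 10.40 and 10.42 with heat and 8.79, 8.65 and 8.64 in the control. It rose 3.48-fold (1.80 ± 0.11, adjusted p = 2.21e-11). ATG3, the enzyme that passes Atg8 to lipid, rose by 1.19 ± 0.07, and ATG4, the protease that trims and recycles Atg8, by 0.68 ± 0.09. ATG16, the partner of the Atg12-Atg5 conjugate, rose by 1.07 ± 0.17, from control levels close to the limit set by the other species' probe sets.

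The rest of the conjugation genes did not follow ATG8. ATG10 (YLL042C), the enzyme that joins Atg12 to Atg5, had levels of 8.00, 8.17 and 8.13 with heat and 8.94, 8.74 and 8.77 in the control, with no overlap, and fell by 0.72 ± 0.13 on the log2 scale (adjusted p = 6.66e-05). ATG5, which receives Atg12, stood at 0.06 ± 0.07 and ATG12 at 0.11 ± 0.08, and neither passed the test.

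In the initiation complex, ATG1 (YGL180W), its protein kinase, measured 9.01, 9.23 and 9.18 with heat and 7.74, 7.69 and 7.55 in the control, a 2.79-fold rise (1.48 ± 0.11, adjusted p = 7.13e-10). ATG17 (YLR423C), its scaffold, had 9.01, 8.68 and 8.70 with heat and 7.66, 7.89 and 7.67 without. Both groups were again separate, and ATG17 rose by 1.06 ± 0.14 (adjusted p = 1.86e-06). ATG29 and ATG31, the partners of that scaffold, rose by 1.63 ± 0.15 and 1.48 ± 0.08, and ATG13, the regulatory subunit, by 0.45 ± 0.06, the smallest rise of the 5.

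Of the lipid kinase complex, VPS34 (YLR240W), the catalytic subunit, had 11.39, 11.25 and 11.20 with heat and 10.52, 10.31 and 10.41 in the control and rose by 0.87 ± 0.07 (adjusted p = 7.92e-10). ATG14, which directs the kinase to autophagy, rose by 0.88 ± 0.14, and VPS30, the yeast Beclin, by 0.41 ± 0.05. VPS15 (YBR097W), the regulatory subunit, had 9.79, 9.85 and 9.74 with heat and 10.04, 9.95 and 9.98 in the control, and fell by 0.20 ± 0.06 (adjusted p = 0.00848). That call was lost when quantile normalization was repeated over S. cerevisiae genes (adjusted p = 0.0705). ATG38, a further subunit, stood at 0.14 ± 0.12 with overlapping groups and did not pass the test.

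In membrane supply, ATG9 (YDL149W), the lipid scramblase that travels on vesicles, measured 10.01, 9.89 and 9.97 with heat and 8.32, 8.35 and 8.24 in the control, 3.14-fold higher (1.65 ± 0.08, adjusted p = 1.96e-12). ATG41, whose product binds Atg9, rose by 1.69 ± 0.24 over control arrays that themselves ranged from 9.37 to 10.77. ATG2, the lipid transfer protein, rose by 1.09 ± 0.08, its partner ATG18 by 0.78 ± 0.06 and ATG23, needed for Atg9 traffic, by 0.92 ± 0.10. ATG27 (YJL178C), a further protein of Atg9 traffic, had 11.59, 11.72 and 11.78 with heat and 12.03, 11.96 and 12.00 in the control. It fell by 0.30 ± 0.06 (adjusted p = 0.000268), without overlap between the groups.

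Among the selective genes, ATG34 (YOL083W), the receptor that brings the vacuolar alpha-mannosidase in during starvation, had 10.86, 10.79 and 10.96 with heat and 8.61, 8.45 and 8.24 in the control. This was 5.43-fold higher (2.44 ± 0.09, adjusted p = 1.21e-14), second to ATG8 among the 38. ATG19 (YOL082W), receptor of the cytoplasm-to-vacuole targeting (Cvt) pathway and the neighbour of ATG34 on chromosome XV, had 11.69, 11.65 and 11.69 with heat and 10.14, 9.91 and 9.85 without, and rose by 1.71 ± 0.07 (adjusted p = 6.56e-14). ATG32 (YIL146C), the mitochondrial receptor, had 9.61, 9.59 and 9.65 with heat and 9.18, 8.97 and 8.90 without. It rose less, by 0.60 ± 0.08 (adjusted p = 2.66e-06), again with separate groups.

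ATG33, of the outer mitochondrial membrane, rose by 1.70 ± 0.06 with heat, and ATG39 and ATG40, receptors for the nuclear envelope and the endoplasmic reticulum, by 1.49 ± 0.13 and 0.74 ± 0.10. The peroxisome receptor ATG36 rose by 1.22 ± 0.07, the sorting nexin ATG20 by 1.28 ± 0.12, and ATG26, a sterol glucosyltransferase, by 0.83 ± 0.08. ATG21, a phosphoinositide-binding protein of the Cvt pathway, rose by 0.58 ± 0.07. ATG11 (YPR049C), the scaffold that links receptors to initiation, was the exception, at 9.99, 10.04 and 10.03 with heat and 9.99, 9.95 and 9.78 in the control. These groups overlapped, and the value of 0.11 ± 0.07 did not pass the test (adjusted p = 0.142). With quantile normalization repeated over S. cerevisiae genes ATG11 was called higher (0.18, adjusted p = 0.0415).

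In the vacuole, ATG15, the lipase that opens autophagic bodies, rose by 1.42 ± 0.10 and ATG22, an amino acid exporter, by 0.60 ± 0.12. UME6 (YDR207C), whose product represses ATG8, had 9.73, 9.41 and 9.49 with heat and 10.58, 10.50 and 10.42 in the control. It fell by 0.95 ± 0.10 (adjusted p = 5.47e-08), the lowest value of the 38.

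**Figure D2:**
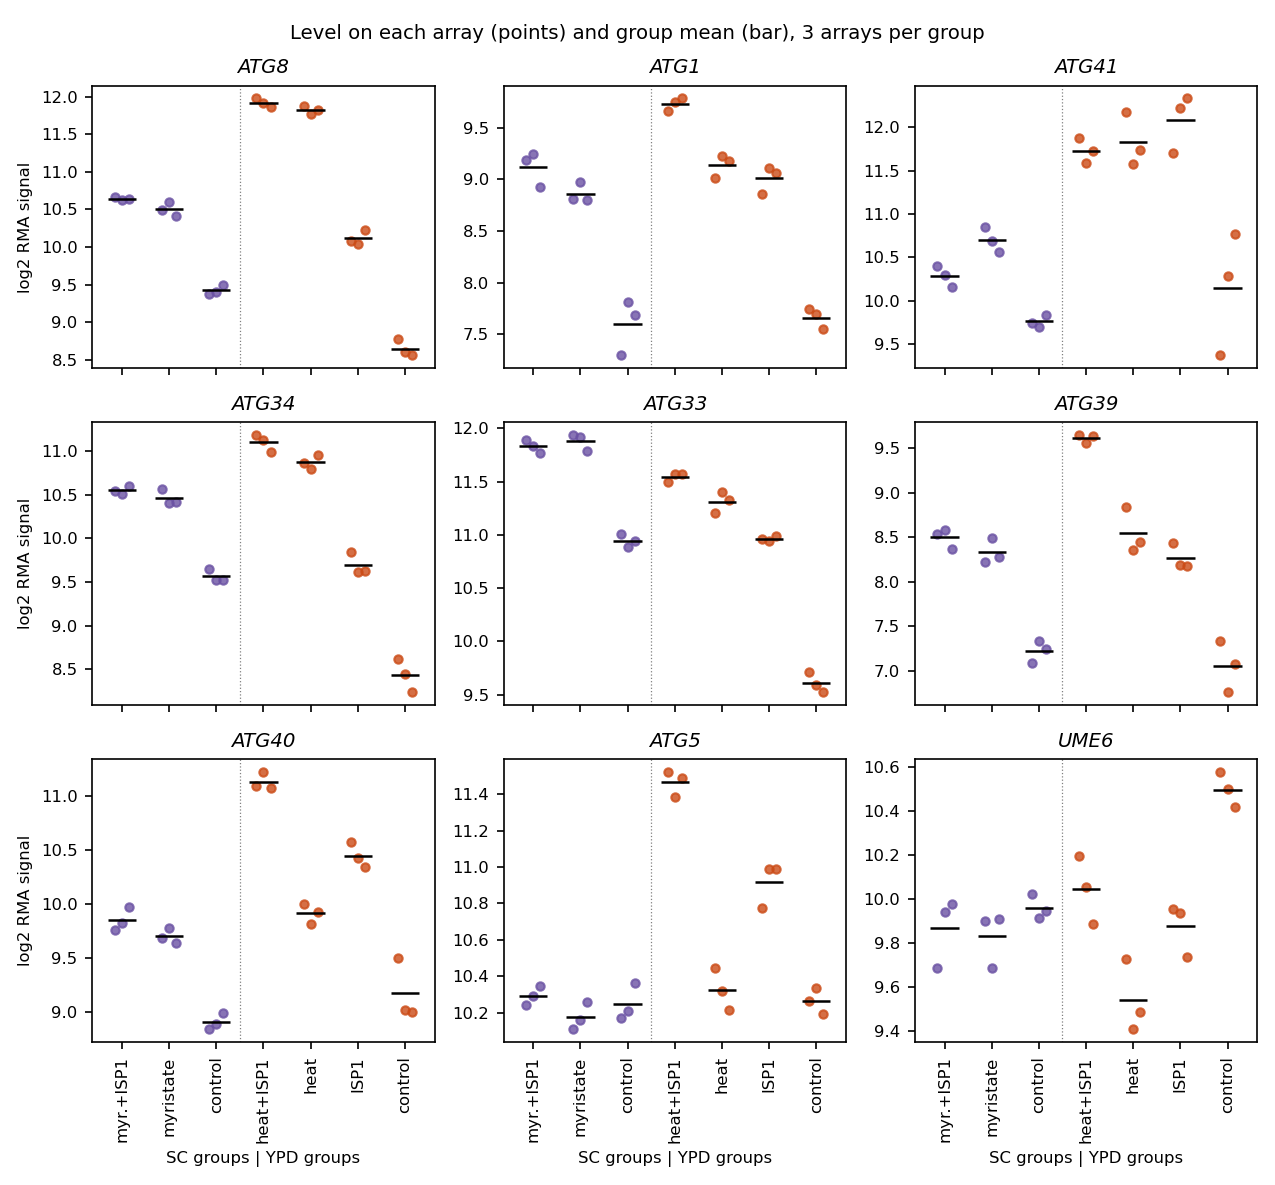
Log2 signal of 9 autophagy genes on every array (points; bars are means of 3 arrays), with the 3 SC groups left of the dotted line and the 4 YPD groups right of it. ATG8 and ATG34 have their lowest points in the YPD control, UME6 has its highest points there, and the 3 control arrays of ATG41 spread from 9.37 to 10.77.

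Around the machinery, heat raised all 9 genes listed as vacuolar hydrolases and Cvt cargo. These included AMS1, the alpha-mannosidase that Atg19 and Atg34 carry (3.38 ± 0.13), APE1, the aminopeptidase cargo of Atg19 (2.88 ± 0.05), and PRB1, vacuolar proteinase B (2.30 ± 0.07). The 12 measured genes of vacuole fusion moved less uniformly, with 5 rising and 2 falling: the SNARE gene VTI1 rose by 1.08 ± 0.06 and the SNARE gene VAM3 fell by 0.67 ± 0.08 on the log2 scale. Of 15 regulators of ATG transcription, 6 rose, GIS1 by 1.31 ± 0.09, and 2 fell, the repressor gene ROX1 by 0.76 ± 0.10. The share of all genes that rose with heat was 39.8%, and 40.9% fell. Of 19 TOR and nutrient signalling genes, 11 rose, with LST8, a TOR complex subunit, at 2.77 ± 0.16 and the kinase gene YPK2 at 2.48 ± 0.09, and 5 fell, TPK3 of protein kinase A by 1.37 ± 0.09.

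ISP1 alone, in unheated YPD cells, also raised most of the autophagy genes. It raised 26 of 38 and lowered 1, UME6, where 27.9% of all genes rose and 33.2% fell. The median log2 change was 0.46 for the 38 and -0.04 for all genes. Among all 5449 genes 303 rose by at least 2-fold, and among the 38 this held for 10. Of these 10, 6 were among the 11 selective genes, 10 of which rose. In the core, 4 of 5 initiation genes, 4 of 5 lipid kinase genes, 3 of 6 membrane supply genes and 5 of 8 conjugation genes rose, and none of the 2 vacuolar genes passed the test, ATG15 at 0.18 ± 0.10 and ATG22 at 0.18 ± 0.12. The heat and ISP1 comparisons share the control arrays.

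ATG41 (YPL250C) had the largest difference with ISP1, with levels of 11.71, 12.22 and 12.33 in treated cells, against 9.37, 10.29 and 10.77 in control cells. The groups did not overlap, although both spread widely, and the change was 1.94 ± 0.24 (adjusted p = 1.73e-06), from 1.56 to 2.26 over the alternative settings and with single arrays left out. ATG8 had 10.08, 10.04 and 10.23 with ISP1, against 8.78, 8.60 and 8.56 in the control, and rose 2.77-fold (1.47 ± 0.07, adjusted p = 2.1e-12). ATG33 (YLR356W) had 10.96, 10.94 and 10.99 with ISP1 and 9.71, 9.59 and 9.52 in the control. The rise of 1.36 ± 0.06 (adjusted p = 2.32e-12) was larger than the spread within either group.

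ATG1 had 8.86, 9.11 and 9.06 with ISP1, against 7.74, 7.69 and 7.55 in the control, 2.55-fold higher (1.35 ± 0.11, adjusted p = 1.15e-08). ATG17, its scaffold, had 7.89, 8.13 and 7.88 with ISP1 and 7.66, 7.89 and 7.67 in the control, groups that overlapped, and its value of 0.22 ± 0.14 did not pass the test. The initiation genes thus differed among themselves, with ATG29 at 1.19 ± 0.15, ATG13 at 0.56 ± 0.06 and ATG31 at 0.42 ± 0.08, all called.

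ATG9 had 9.13, 8.90 and 8.87 with ISP1 and 8.32, 8.35 and 8.24 in the control and rose by 0.66 ± 0.08 (adjusted p = 1.95e-06). ATG2 rose by 0.44 ± 0.08, whereas ATG18 (0.03 ± 0.06), ATG23 (0.13 ± 0.10) and ATG27 (-0.06 ± 0.06) did not pass the test. VPS34 had 10.92, 10.93 and 10.81 with ISP1 and 10.52, 10.31 and 10.41 in the control, and its rise of 0.47 ± 0.07 was clear of the spread (adjusted p = 7.47e-06). ATG38 rose by 0.74 ± 0.12. VPS15 (0.10, adjusted p = 0.179) did not pass the test, but was called higher without ISP1 array 3 (0.0456). The calls for ATG14 (0.35 ± 0.14) and VPS30 (0.17 ± 0.05) were each lost in at least 1 setting: without ISP1 array 1 their adjusted p was 0.148 and 0.0555. ATG14 also lost its call without control array 2 (0.0989), control array 3 (0.136) or ISP1 array 3 (0.0508), and with quantile normalization repeated over S. cerevisiae genes (0.211), while VPS30 lost its call with only the arrays compared (0.0504).

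Of the conjugation genes, ATG5 (YPL149W) had 10.78, 10.99 and 10.99 with ISP1 and 10.27, 10.33 and 10.19 in the control, with no overlap, and rose by 0.65 ± 0.07 (adjusted p = 4.89e-07). ATG4 rose by 0.57 ± 0.09, ATG7 by 0.44 ± 0.11 and ATG3 by 0.41 ± 0.07. ATG10 (-0.20 ± 0.13), ATG12 (-0.12 ± 0.08) and ATG16 (0.27 ± 0.17) did not pass the test. With only the arrays compared, ATG10 was called lower (adjusted p = 0.033) and ATG16 higher (0.0427).

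Among the receptor genes, ATG40 rose by 1.27 ± 0.10, ATG34 by 1.26 ± 0.09, ATG39 by 1.21 ± 0.13, ATG19 by 1.18 ± 0.07 and ATG36 by 0.86 ± 0.07. The remaining selective genes that rose were ATG20 at 1.15 ± 0.12, ATG26 at 0.55 ± 0.08 and ATG21 at 0.48 ± 0.07. ATG32 had 9.37, 9.45 and 9.13 with ISP1 and 9.18, 8.97 and 8.90 in the control. Its groups overlapped by 1 array on each side, and the change was 0.30 ± 0.08 (adjusted p = 0.00503). ATG11 had 9.98, 9.92 and 9.96 with ISP1 and 9.99, 9.95 and 9.78 in the control, which overlapped as well, and did not pass the test (0.05 ± 0.07, adjusted p = 0.596).

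UME6 had 9.96, 9.94 and 9.74 with ISP1, all below the control values of 10.58, 10.50 and 10.42, and fell by 0.62 ± 0.10 (adjusted p = 2.93e-05). All 9 vacuolar hydrolase and Cvt cargo genes rose with ISP1, APE1 by 2.14 ± 0.05, PRB1 by 1.53 ± 0.07 and AMS1 by 1.40 ± 0.13. Of the fusion genes 3 of 12 rose and 1 fell, where 27.9% of all genes rose and 33.2% fell. Of the regulators of ATG transcription 5 of 15 rose and 1 fell, with the GATA factor gene GLN3 up by 1.05 ± 0.08. Of the TOR and nutrient signalling genes 6 of 19 rose and 3 fell.

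**Figure D3:**
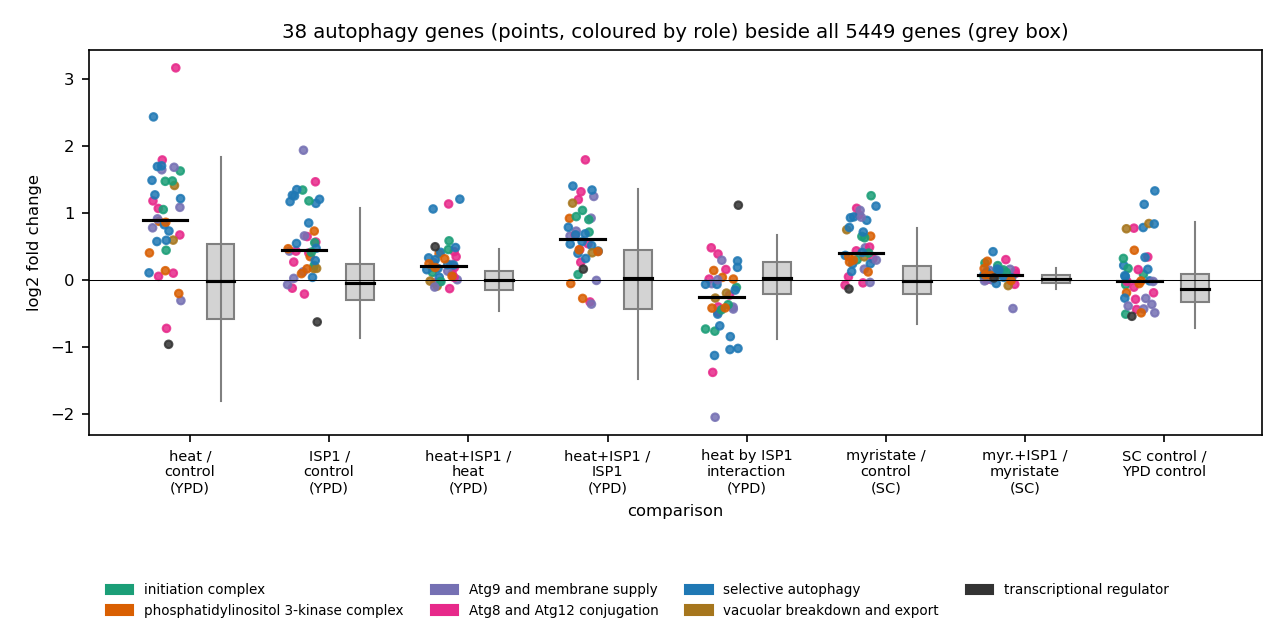
Log2 fold change (vertical axis) of the 38 autophagy genes (points coloured by role, bar at their median) beside all 5449 genes (grey box over the interquartile range, line at the median, whiskers leaving out 5% of genes at each end) in 8 comparisons. The medians of the autophagy genes are 0.90 for heat, 0.46 for ISP1 and 0.41 for myristate, against -0.00, -0.04 and -0.01 for all genes.

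In heated cells, ISP1 raised receptor genes of the endoplasmic reticulum and ATG5 above the level reached with heat, while ATG8 showed no called difference. Heat with ISP1 raised 21 of the 38 over heat alone and lowered none, against 16.5% of all genes higher and 16.3% lower, with medians of 0.21 for the 38 and 0.01 for all genes. Called rises of at least 2-fold numbered 3 among the 38 and 56 among all 5449 genes. Of the 21 calls, 7 (ATG9, ATG13, ATG14, ATG20, ATG29, ATG36 and ATG38) were lost in at least 1 alternative setting or with 1 array left out, and without heat array 2 all 7 were lost, which left 14. Replicate numbers were taken to pair these arrays, from correlated deviations and not from the labels. With the number as a block the call for ATG20 was lost (adjusted p = 0.0577), which gave 20 calls.

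ATG40 (YOR152C) had 11.09, 11.22 and 11.07 in cells given heat with ISP1, against 10.00, 9.81 and 9.93 in cells given heat alone. The difference of 1.21 ± 0.10 was 2.32-fold (adjusted p = 1.15e-07). ATG39 (YLR312C) had 9.65, 9.57 and 9.63 with both treatments and 8.84, 8.36 and 8.45 with heat alone, and was higher by 1.07 ± 0.13 (adjusted p = 9.16e-06). These receptor genes were thus clear of the heat arrays in all replicates. ATG5 had 11.52, 11.38 and 11.49 with both treatments, against 10.44, 10.32 and 10.21 with heat alone, and was 2.21-fold higher (1.14 ± 0.07, adjusted p = 4.5e-09).

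ATG1 had 9.66, 9.75 and 9.78 with heat and ISP1 and 9.01, 9.23 and 9.18 with heat alone, higher by 0.59 ± 0.11 (adjusted p = 0.000687). ATG32 had 10.02, 10.17 and 10.13 with both and 9.61, 9.59 and 9.65 with heat alone, higher by 0.49 ± 0.08 (adjusted p = 0.000228). ATG11 had 10.40, 10.32 and 10.35 with both and 9.99, 10.04 and 10.03 with heat alone, higher by 0.34 ± 0.07 (adjusted p = 0.0012). In these 3 genes every array with both treatments lay above every array with heat alone.

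UME6 had 10.20, 10.06 and 9.89 with both treatments, all above 9.73, 9.41 and 9.49 with heat alone. The rise of 0.50 ± 0.10 (adjusted p = 0.00089) opposed the direction of the ISP1 effect on UME6 in unheated cells. ATG8 had 11.98, 11.91 and 11.86 with both treatments and 11.88, 11.77 and 11.82 with heat alone (0.10 ± 0.07, adjusted p = 0.271), and these groups overlapped. ATG9 had 10.11, 10.24 and 10.31 with both and 10.01, 9.89 and 9.97 with heat alone (0.27 ± 0.08, adjusted p = 0.0215), a call that was lost without heat array 2 (0.0844), heat with ISP1 array 2 (0.0603) or heat with ISP1 array 3 (0.0959).

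ATG17 had 8.89, 8.88 and 8.99 with both treatments and 9.01, 8.68 and 8.70 with heat alone, and VPS34 had 11.42, 11.31 and 11.30 with both and 11.39, 11.25 and 11.20 with heat alone. Both pairs of groups overlapped, and neither gene passed the test (0.12 ± 0.14 and 0.06 ± 0.07). The other rises that held in every setting were those of ATG3 (0.43 ± 0.07), ATG21 (0.42 ± 0.07), ATG4 (0.35 ± 0.09), VPS15 (0.25 ± 0.06), ATG27 (0.24 ± 0.06), ATG33 (0.23 ± 0.06) and VPS30 (0.19 ± 0.05). Outside the machinery, 5 of the 9 hydrolase and cargo genes rose, CPS1, vacuolar carboxypeptidase S, by 0.55 ± 0.09, along with 2 of 12 fusion genes and 2 of 19 TOR and nutrient signalling genes, of which 2 also fell. Among the 15 regulators 4 rose and 2 fell, where 16.5% of all genes rose and 16.3% fell.

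The effect of ISP1 on autophagy genes depended on heat for 20 of the 38. The interaction, the ISP1 effect in heated cells minus that in unheated cells, was below 0 for 16 and above 0 for 4, where 19.1% of all genes were called below 0 and 21.8% above. Its median was -0.24 for the 38 and 0.04 for all genes. By role, it was below 0 for 4 of 5 initiation genes, 1 of 5 lipid kinase genes, 3 of 6 membrane supply genes, 2 of 8 conjugation genes and 6 of 11 selective genes. Across the 38 genes, the ISP1 effects with and without heat, which share no arrays, correlated with r = 0.22, against 0.54 across all 5449 genes, given as a description since genes are not independent.

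**Figure D4:**
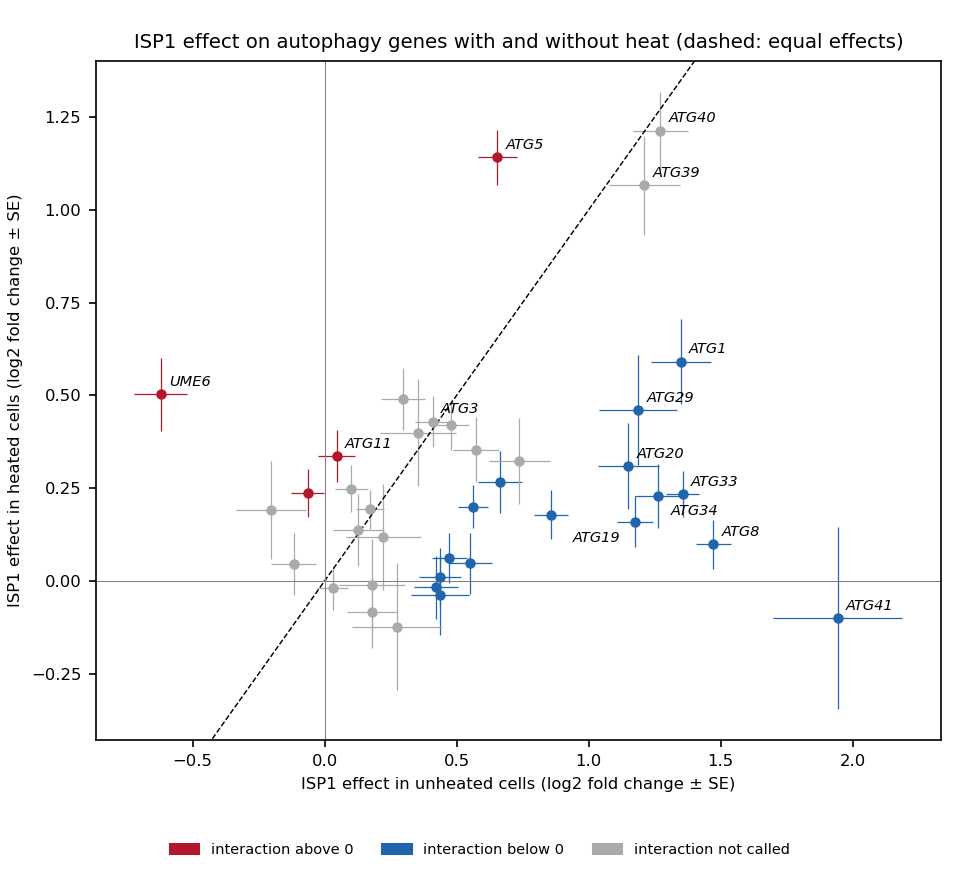
ISP1 effect on each of the 38 autophagy genes in heated cells (vertical axis, log2 fold change ± SE) against that in unheated cells (horizontal axis, log2 fold change ± SE); colour marks the interaction call. ATG41, ATG8, ATG33 and ATG34 lie far below the dashed line of equal effects, ATG40 and ATG39 lie near it, and UME6 and ATG5 lie above it.

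ATG41 had the most negative interaction, -2.04 ± 0.35 (adjusted p = 0.000141). Its levels were 11.88, 11.59 and 11.72 with heat and ISP1, 12.18, 11.58 and 11.73 with heat and 11.71, 12.22 and 12.33 with ISP1, against 9.37, 10.29 and 10.77 in the control, so the 3 treated groups overlapped one another and the control stood apart. The wide control group bears on this value, which ran from -2.36 to -1.66 over the alternative settings and with single arrays left out. ATG8 had an interaction of -1.37 ± 0.09 (adjusted p = 3.53e-09), with an ISP1 effect of 0.10 in heated cells and 1.47 in unheated cells. ATG33 had -1.12 ± 0.09 and ATG34 -1.03 ± 0.12, from ISP1 effects of 0.23 and 0.23 in heated cells and of 1.36 and 1.26 in unheated cells. In all 4 genes the ISP1 effect was far smaller in size in heated cells than in unheated cells.

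ATG19, at -1.02 ± 0.10, stood beside its neighbour ATG34. ATG1, at -0.76 ± 0.16, was the most negative of the initiation genes and still had an ISP1 effect of 0.59 in heated cells. VPS34 (-0.41 ± 0.10) and ATG9 (-0.40 ± 0.12) had smaller negative interactions. Calls for ATG7 (-0.47 ± 0.15) and ATG11 (0.29 ± 0.10) were each lost in some settings. ATG7 lost its call without heat array 1 (adjusted p = 0.0582), ISP1 array 1 (0.0551) or heat with ISP1 array 2 (0.0574). ATG11 lost its call with quantile normalization repeated over S. cerevisiae genes (0.0875), with median centring (0.082), and without control array 1 (0.0643), control array 2 (0.0543) or ISP1 array 2 (0.0507). Other genes gained a call. ATG38 of the lipid kinase complex (-0.41, adjusted p = 0.0513) was called below 0 with only the arrays compared (0.0245) or median centring (0.0195). The same held without heat array 2 (0.0475), heat array 3 (0.0403) or ISP1 array 3 (0.0459). In at least 1 setting ATG15, ATG16 and ATG22 were called below 0 and ATG10 above 0.

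The positive interactions were those of UME6 (1.12 ± 0.14, adjusted p = 6.05e-06), ATG5 (0.49 ± 0.11, adjusted p = 0.00123), ATG27 (0.30 ± 0.09) and ATG11. For UME6 the ISP1 effect changed sign, at 0.50 in heated cells and -0.62 in unheated cells. For ATG5 it was 1.14 in heated cells and 0.65 in unheated cells, and heat alone left ATG5 at 0.06 ± 0.07. ATG39 (-0.14 ± 0.19), ATG40 (-0.06 ± 0.15), ATG32 (0.19 ± 0.12) and ATG17 (-0.10 ± 0.20) did not pass the interaction test. Of the hydrolase and cargo genes 8 of 9 had an interaction below 0, APE1 at -2.02 ± 0.07 and PRB1 at -1.15 ± 0.10. Among all genes 19.1% were called below 0 and 21.8% above. GLN3, at -1.12 ± 0.11, was the lowest of the 15 regulators of ATG transcription, of which 3 were below 0 and 2 above, and YPK2, at -0.88 ± 0.12, the lowest of the 19 TOR and nutrient signalling genes, with 6 below 0 and 2 above.

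In cells given ISP1, heat again raised most of the autophagy genes. Heat with ISP1 against ISP1 alone raised 31 of the 38 and lowered 2, where 40.0% of all genes rose and 37.2% fell, with medians of 0.62 and 0.03. All 11 selective genes and both vacuolar genes rose. ATG8 had 11.98, 11.91 and 11.86 with heat and ISP1, against 10.08, 10.04 and 10.23 with ISP1 alone, 3.48-fold higher (1.80 ± 0.07, adjusted p = 6.89e-14). ATG34 had 11.19, 11.13 and 10.99 with both, against 9.85, 9.61 and 9.62 with ISP1 alone, higher by 1.41 ± 0.09 (adjusted p = 5.51e-11). ATG39 had 9.65, 9.57 and 9.63 with both, against 8.44, 8.19 and 8.17 with ISP1 alone, higher by 1.35 ± 0.13 (adjusted p = 3.43e-08). None of these groups overlapped.

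ATG7 had 10.55, 10.32 and 10.49 with heat and ISP1, against 9.28, 9.08 and 9.03 with ISP1 alone, and was 2.50-fold higher (1.32 ± 0.11, adjusted p = 2.75e-09). ATG9 rose by 1.25 ± 0.08, ATG17 by 0.95 ± 0.14, ATG32 by 0.79 ± 0.08, ATG1 by 0.72 ± 0.11, VPS34 by 0.46 ± 0.07 and ATG11 by 0.40 ± 0.07. ATG10 had 8.42, 8.19 and 8.26 with both and 8.61, 8.59 and 8.64 with ISP1 alone (-0.32 ± 0.13, adjusted p = 0.0336), a call that was lost without ISP1 array 1, 2 or 3 or heat with ISP1 array 2 or 3 (adjusted p from 0.0573 to 0.11). ATG38 had 8.59, 8.62 and 8.64 with both and 8.87, 9.02 and 8.78 with ISP1 alone. It stood at -0.27 ± 0.12 (adjusted p = 0.0419). With the replicate number as a block, taken to pair these arrays, the adjusted p was 0.0519. That call was also lost without ISP1 array 1 or 2 or any array of heat with ISP1 (adjusted p from 0.0657 to 0.157), and with quantile normalization repeated over S. cerevisiae genes (0.085). Among the rises, that of ATG12 (0.27) lost its call without heat with ISP1 array 1 (adjusted p = 0.0598). The rise of ATG16 (0.68) lost its call with quantile normalization repeated over S. cerevisiae genes (0.21, adjusted p = 0.17). UME6 (0.17 ± 0.10) and ATG41 (-0.35 ± 0.24) did not pass the test, although UME6 was called higher without heat with ISP1 array 3 (adjusted p = 0.0442). Of the surrounding genes, 8 of 9 hydrolase and cargo genes rose, with AMS1 at 2.44 ± 0.13. Of the fusion genes 6 of 12 rose and 2 fell, and of the regulators 6 of 15 rose and 3 fell. Of the TOR and nutrient signalling genes 10 of 19 rose and 6 fell, where 40.0% of all genes rose and 37.2% fell.

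Myristate in SC raised 28 of the 38 autophagy genes and lowered none, where 26.6% of all genes rose and 25.7% fell. The median log2 change was 0.41 for the 38 and -0.01 for all genes. Called rises of at least 2-fold numbered 4 among the 38 and 171 among all 5449 genes. All 5 initiation genes and both vacuolar genes rose, as did 3 of 5 in the lipid kinase complex, 5 of 6 in membrane supply, 4 of 8 in conjugation and 9 of 11 in selective autophagy. Replicate numbers were taken to pair these arrays too. With the number as a block ATG16 (adjusted p = 0.0303) and ATG20 (0.0333) were also called, which made 30.

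ATG1 had 8.81, 8.98 and 8.80 with myristate, against 7.30, 7.81 and 7.68 in the SC control, the largest change at 1.26 ± 0.11, or 2.40-fold (adjusted p = 6.41e-08). ATG39 had 8.22, 8.49 and 8.28 with myristate and 7.09, 7.33 and 7.24 in the control, and rose by 1.11 ± 0.13 (adjusted p = 1.87e-06). ATG8 had 10.49, 10.60 and 10.42 with myristate and 9.38, 9.40 and 9.50 in the control, and rose 2.11-fold (1.08 ± 0.07, adjusted p = 6.99e-10). The groups were separate for all 3 genes.

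ATG9 had 9.08, 9.07 and 8.82 with myristate and 7.89, 7.89 and 8.06 in the control, and rose by 1.05 ± 0.08 (adjusted p = 1.69e-08). VPS34 had 10.79, 10.64 and 10.71 with myristate and 10.32, 10.36 and 10.40 in the control, a smaller rise of 0.35 ± 0.07 (adjusted p = 0.000257). ATG32 had 9.45, 9.47 and 9.47 with myristate and 8.96, 9.16 and 9.15 in the control, and rose by 0.37 ± 0.08 (adjusted p = 0.00108). These groups too were separate, while those of ATG17 overlapped, with 7.38, 7.89 and 7.66 with myristate and 6.89, 7.46 and 7.37 in the control (0.41 ± 0.14, adjusted p = 0.0237).

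The ATG17 call was lost without SC control array 1 (adjusted p = 0.16), myristate array 2 (0.134) or myristate array 3 (0.0556), and with only the arrays compared (0.102). With quantile normalization repeated over S. cerevisiae genes the ATG17 difference was 0.17 (adjusted p = 0.191). ATG18 (0.17 ± 0.06) lost its call under that normalization (0.0663) and without SC control array 1 (0.0835) or myristate array 1 (0.0824), and ATG23 (0.30 ± 0.10) without SC control array 1 (0.0578) or myristate array 2 (0.0613). ATG7 (0.98 ± 0.11), ATG19 (0.95 ± 0.07), ATG33 (0.94 ± 0.06), ATG41 (0.94 ± 0.24), ATG34 (0.90 ± 0.09), ATG40 (0.79 ± 0.10), ATG22 (0.76 ± 0.12) and ATG36 (0.72 ± 0.07) rose under each setting tried.

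The genes that myristate left without a call included UME6, at 9.90, 9.69 and 9.91 with myristate and 10.02, 9.91 and 9.95 in the SC control. Its difference was -0.13 ± 0.10 (adjusted p = 0.299). ATG11 had 10.23, 9.94 and 10.12 with myristate and 10.07, 9.92 and 9.89 in the control, which overlapped (0.13 ± 0.07, adjusted p = 0.119). It was called higher without SC control array 1 (adjusted p = 0.0425) or myristate array 2 (0.0175). In the lipid kinase complex, ATG38 (0.28, adjusted p = 0.0543) and VPS15 (0.13, 0.105) were called higher with median centring (0.023 and 0.0447). Both were also called without myristate array 1 (0.049 and 0.0448). ATG38 was called with only the arrays compared too (0.0105), and VPS15 with quantile normalization repeated (0.043). ATG16 and ATG20 were also called without myristate array 1 (0.02 and 0.0225). ATG5 stood at -0.07 ± 0.07, ATG12 at -0.04 ± 0.08 and ATG10 at 0.05 ± 0.13. All 9 hydrolase and cargo genes rose, AMS1 by 1.17 ± 0.13, APE1 by 0.80 ± 0.05 and PRB1 by 0.78 ± 0.07, as did 3 of 12 fusion genes. Of 15 regulators 5 rose and 1 fell, and of 19 TOR and nutrient signalling genes 6 rose and 2 fell. The share of all genes that rose with myristate was 26.6%, and 25.7% fell.

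Heat in YPD and myristate in SC share no arrays, and 28 of the 38 genes rose in both. With heat 30 of the 38 rose, and 39.8% of all genes. With myristate 28 of the 38 rose, and 26.6% of all genes. The share of all genes that rose in both was not counted, so the overlap is not read as particular to autophagy genes. Across the 38 genes the log2 changes of these comparisons correlated with r = 0.81, and across all 5449 genes with r = 0.78, so the likeness was about that of the transcriptome as a whole. The order within the 38 differed, with ATG8 first under heat (3.17) and ATG1 first under myristate (1.26).

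**Figure D5:**
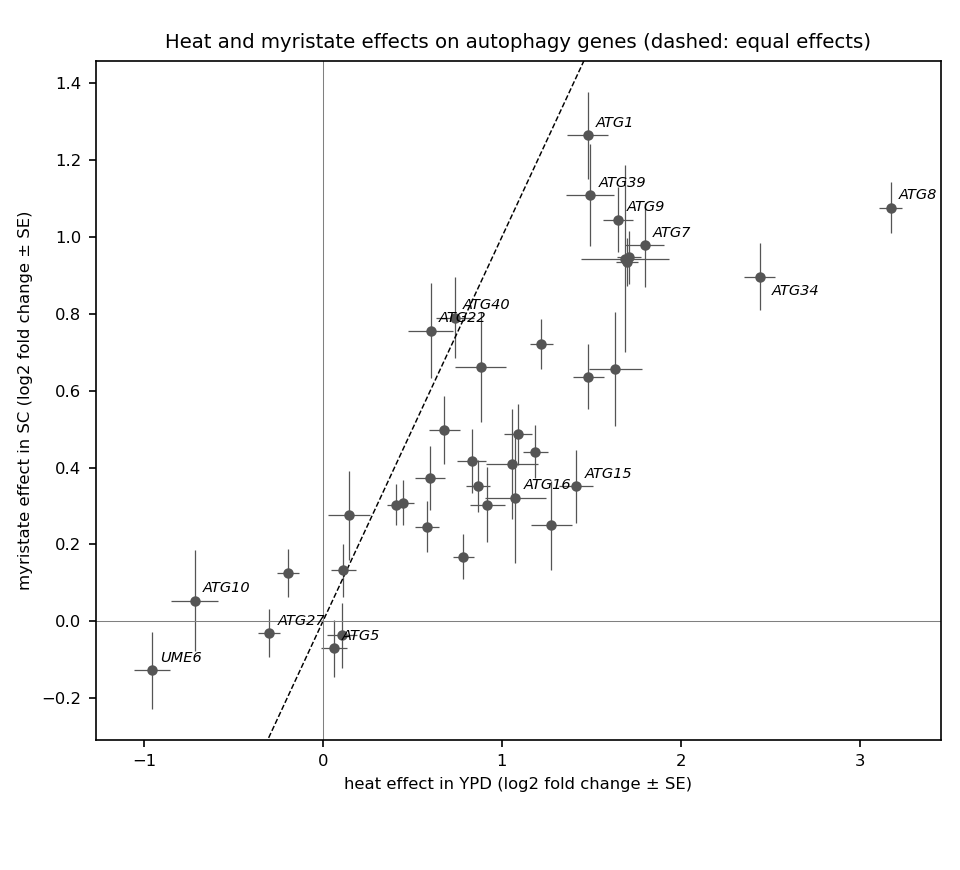
Log2 fold change ± SE of the 38 autophagy genes with myristate in SC (vertical axis) against that with heat in YPD (horizontal axis). ATG8 lies far right at 3.17 with heat and 1.08 with myristate, and UME6 and ATG10 lie left of 0.

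ISP1 given with myristate in SC called no autophagy gene in either direction against myristate alone by limma. Of the 38, 5 had an unadjusted p under 0.05, and 349 of all 5449 genes did. Calls across all genes amounted to 0.0184% higher, which is 1 gene, VHR1, named after its value was seen (0.48 ± 0.08, adjusted p = 0.0363), and 0% lower. The median change was 0.08 for the 38 and 0.01 for all genes, and 32 of the 38 had a value above 0, against 58.3% of all genes. The lowest adjusted p of a member was 0.228, for ATG20 (0.43 ± 0.12).

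ATG8 had 10.67, 10.62 and 10.64 with myristate and ISP1, all above 10.49, 10.60 and 10.42 with myristate alone, a difference of 0.14 ± 0.07 (adjusted p = 0.767). ATG1 had 9.19, 9.24 and 8.93 with both, against 8.81, 8.98 and 8.80 with myristate alone, groups that overlapped (0.26 ± 0.11, adjusted p = 0.695). UME6 had 9.69, 9.94 and 9.98 with both and 9.90, 9.69 and 9.91 with myristate alone (0.04 ± 0.10). The 95% intervals of the 38 differences lay between -0.93 and 0.67, so none reached a 2-fold change in either direction.

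The other genes shown throughout overlapped between these groups. ATG9 had 9.07, 9.27 and 9.14 with myristate and ISP1 and 9.08, 9.07 and 8.82 with myristate alone. ATG11 had 10.08, 10.16 and 10.17 with both and 10.23, 9.94 and 10.12 with myristate alone, and ATG17 had 7.93, 7.85 and 7.62 with both and 7.38, 7.89 and 7.66 with myristate alone. For ATG32 the levels were 9.45, 9.60 and 9.60 with both and 9.45, 9.47 and 9.47 with myristate alone, and for VPS34 10.72, 10.78 and 10.90 with both and 10.79, 10.64 and 10.71 with myristate alone. No gene of the 4 surrounding lists was called. Whether the ISP1 effect differed between SC with myristate and YPD was not tested.

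The untreated media differed in some autophagy genes and in both directions. In the SC control against the YPD control, 11 of the 38 were higher and 10 lower, where 18.9% of all genes were higher and 40.9% lower. The median was -0.01 for the 38 and -0.13 for all genes, so values here are read against that shift. With quantile normalization repeated over S. cerevisiae genes the split of the 38 was 15 higher and 8 lower, and with median centring 13 and 8. The median of all genes was then -0.07 under both. Calls for ATG7 (-0.28 ± 0.11), ATG10 (-0.43 ± 0.13) and ATG40 (-0.27 ± 0.10) were lost without SC control array 1 (adjusted p of 0.201, 0.071 and 0.112), and those for ATG7 and ATG40 also without YPD control array 1 (0.116 and 0.293). ATG7 lost its call without YPD control array 2 (0.0512) as well, and ATG40 without SC control array 2 (0.0812). Both also lost their calls with quantile normalization repeated (0.0762 for ATG7 and 0.161 for ATG40) and with median centring (0.0763 for ATG7 and 0.112 for ATG40), and ATG40 with only the arrays compared (0.133).

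ATG33 had 11.00, 10.89 and 10.94 in SC, against 9.71, 9.59 and 9.52 in YPD, 2.52-fold higher (1.34 ± 0.06, adjusted p = 3.16e-12). ATG34 had 9.65, 9.52 and 9.53 in SC and 8.61, 8.45 and 8.24 in YPD, higher by 1.14 ± 0.09 (adjusted p = 4.16e-09). ATG22 (YCL038C) had 9.96, 10.02 and 9.98 in SC and 9.29, 9.02 and 9.10 in YPD, higher by 0.85 ± 0.12 (adjusted p = 1.53e-05). All 3 were higher on every SC array.

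ATG36 (YJL185C) had 9.08, 8.99 and 9.09 in SC and 8.36, 8.15 and 8.12 in YPD, higher by 0.84 ± 0.07 (adjusted p = 5.49e-09). ATG8 had 9.38, 9.40 and 9.50 in SC and 8.78, 8.60 and 8.56 in YPD, higher by 0.78 ± 0.07 (adjusted p = 1.68e-08). ATG19 was higher by 0.79 ± 0.07 and ATG15 by 0.77 ± 0.10. Selective and vacuolar genes thus made up 7 of the 11 higher calls, in 5 of 11 and 2 of 2 genes. Of the other selective genes, ATG39 was called higher with quantile normalization repeated (adjusted p = 0.0418) and ATG20 with median centring (0.0335).

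In the core, which holds 24 of the 38, 8 genes were lower and 4 higher. Across all genes 40.9% were lower and 18.9% higher. The split of the core depended on the scaling. With quantile normalization repeated, ATG13 (0.18, adjusted p = 0.012), ATG16 (0.49, 0.00594) and ATG29 (0.43, 0.00198) were also called higher. ATG13 was called higher with median centring too (0.0266), and ATG29 without SC control array 1 (0.0394). ATG12 was called lower without SC control array 3 (0.0374), and ATG41 without YPD control array 1 (0.00216). UME6, which is not in the core, had 10.02, 9.91 and 9.95 in SC and 10.58, 10.50 and 10.42 in YPD (-0.54 ± 0.10, adjusted p = 0.00018). ATG17 had 6.89, 7.46 and 7.37 in SC and 7.66, 7.89 and 7.67 in YPD (-0.50 ± 0.14, adjusted p = 0.006). ATG2 (YNL242W) had 8.33, 8.53 and 8.39 in SC and 8.91, 8.96 and 8.83 in YPD (-0.48 ± 0.08, adjusted p = 4.79e-05). Each of these genes was lower on all SC arrays than on any YPD array.

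VPS30 (YPL120W) had 9.29, 9.40 and 9.40 in SC and 9.85, 9.88 and 9.82 in YPD (-0.48 ± 0.05, adjusted p = 4.5e-07). ATG9 had 7.89, 7.89 and 8.06 in SC and 8.32, 8.35 and 8.24 in YPD (-0.36 ± 0.08, adjusted p = 0.0015). ATG1 (-0.06 ± 0.11), ATG11 (0.06 ± 0.07), ATG32 (0.07 ± 0.08) and VPS34 (-0.05 ± 0.07) did not pass the test. All 9 hydrolase and cargo genes were higher in SC, AMS1 by 2.21 ± 0.13 and APE1 by 1.45 ± 0.05, while 7 of 12 fusion genes were lower and 1 higher. Of the regulators 6 of 15 were lower and 4 higher. Of the TOR and nutrient signalling genes 5 of 19 were lower and 2 higher, where 40.9% of all genes were lower and 18.9% higher.

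The difference between the 3' and 5' ACT1 probe sets, a sign of RNA integrity and labelling, was 0.36 ± 0.01 in the SC control and 0.56 ± 0.04 in the YPD control (log2, SD, n = 3 each). An older pair of ACT1 probe sets gave 0.13 ± 0.01 in the SC control and 0.38 ± 0.02 in the YPD control. With heat in YPD the pairs disagreed. The older pair gave 0.51 ± 0.03, above its control value, and the first pair 0.52 ± 0.01, below its own. The part of RNA integrity and labelling in the differences between media and with heat was not tested.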

How the data were processed

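Per the labels' protocols, total RNA was labelled with biotin and hybridized, 1 Affymetrix yeast array for each of 21 samples. The deposited values are log2 signals per probe set for 10928 probe sets. Per the submitters' processing notes, affy and RMA were used; their versions and any further step are not given in the sources read. RMA makes the arrays share 1 distribution, so a change common to most genes would not show.

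Groups and replicate numbers follow the titles; the descriptions of replicates 2 and 3 of myristate with ISP1 carry another number after ISP. Probe sets were named through the platform annotation, with symbols updated through a gene table of assembly R64, which altered none of the 38 members. The probe set with the highest mean stood for a gene with several, which left 5449 genes. The 95th percentile of probe-set means for the other species on the array, 4.84, was the limit for dim genes. VPS11, VPS18 and VPS39 of the surrounding lists were not analysed here.

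Comparisons were contrasts of group means fitted with lmFit and eBayes of limma 3.58.1 (R 4.3.3) to the 21 arrays together, leaving 14 residual degrees of freedom. P-values were adjusted by Benjamini and Hochberg's method across all 5449 genes, and an adjusted value under 0.05 was called. The fit was tested on simulated data in which few genes changed and the noise was independent between arrays. Many genes changed in these data and some arrays had correlated deviations, so that test does not show how reliable the calls are here. No exact permutation test was made, since with 3 arrays a side the smallest p it allows is 0.1. Values on every array are given for up to 4 members with the largest rise and 4 with the largest fall per comparison and always for ATG1, ATG8, ATG9, ATG11, ATG17, ATG32, VPS34 and UME6, and up to 3 called genes are named from each surrounding list. The members, roles and lists were chosen with earlier results of these data known.

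Whether replicate numbers from the titles pair arrays was checked by correlating deviations from the group means. Every same-numbered pair exceeded 0.1 for myristate and the SC control (0.322 to 0.626), ISP1 and the YPD control (0.230 to 0.530), heat with ISP1 and heat (0.172 to 0.433), and heat with ISP1 and ISP1 (0.132 to 0.350), and these were taken as paired. The alternatives were a fit of only the arrays compared, the replicate number as a block, dim genes left out, quantile normalization repeated or median centring over S. cerevisiae genes, an intensity trend with a robust prior, averaging probe sets of 1 gene and leaving out each array.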

Additional observations from a re-analysis of the deposited data

Results flagged for a closer look

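The effect of ISP1 differed between heated and unheated YPD cells for 20 of the 38 autophagy genes, by the interaction term in limma, and values are the log2 effect in heated cells minus that in unheated cells. Among the selective genes it was -1.12 for ATG33, -1.03 for ATG34, -1.02 for ATG19, -0.84 for ATG20, -0.68 for ATG36, -0.50 for ATG26 and 0.29 for ATG11. Among the initiation genes it was -0.76 for ATG1, -0.73 for ATG29, -0.44 for ATG31 and -0.36 for ATG13. In Atg9 traffic and membrane supply it was -2.04 for ATG41, -0.43 for ATG2, -0.40 for ATG9 and 0.30 for ATG27. Of the conjugation genes, ATG8 had -1.37, ATG7 -0.47 and ATG5 0.49, and of the lipid kinase genes VPS34 had -0.41. UME6 had 1.12, and of these 20 genes it was the one whose ISP1 effect was called in both settings with opposite signs.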

How the results depend on the processing

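The count of autophagy genes called stayed within 1.5 times its reported value in all 8 comparisons under the 7 alternative settings and with each array left out in turn, and no named gene reversed its sign among its called values. With 1 array left out the count was 34 for heat, 25 to 27 for ISP1, 14 to 21 for heat with ISP1 against heat, 31 to 32 for heat with ISP1 against ISP1, 19 to 21 for the interaction, 26 to 31 for myristate, 0 for myristate with ISP1 and 19 to 22 for the SC against the YPD control. Under the other settings these counts were 34, 26 to 28, 19 to 22, 31 to 33, 20 to 22, 27 to 31, 0 and 20 to 23. With the replicate block the counts were 34 for heat, 27 for ISP1, 20 for heat with ISP1 against heat, 32 for heat with ISP1 against ISP1, 20 for the interaction, 30 for myristate, 0 for myristate with ISP1 and 21 between the media, and the block changed no call of a member other than those given with their comparisons (ATG20, ATG38, and ATG16 and ATG20 with myristate). Of the values of single named genes under an alternative, 1244 kept their direction and their side of the threshold, 26 lost the call and 4 gained one. The cause of these changes was not tested. The arrays give transcripts relative to the other genes of the same array, with 3 arrays a group and 1 time per treatment.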
